A study of Mus musculus with 16 samples.

Results

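The nuclear genes for respiratory complexes II to V were followed in mouse 8-cell embryos, blastocysts and pancreatic islets. The members were the gene symbols Sdha, Sdhb, Sdhc, Sdhd and Cyc1, and every symbol that starts with Uqcr, Cox4 to Cox8 or Atp5, with pseudogenes left out. This gave 48 genes of the 23976 symbols in each embryo table and the 24486 entries in each islet table: 4 of complex II, 9 of complex III, 18 of complex IV and 17 of complex V. The set holds 3 genes that are not known as stable subunits of the complex their symbol names. Cox7a2l is a factor for respiratory supercomplexes, Atp5s is a coupling factor, and Atp5sl is linked to complex I assembly; all 3 stay in the counts.

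Complex II, succinate dehydrogenase, passes electrons from succinate to ubiquinone and is also an enzyme of the citric acid cycle. Complex III carries them to cytochrome c, complex IV (cytochrome c oxidase) hands them to oxygen, and complex V (ATP synthase) uses the resulting proton gradient to make ATP. Early mouse embryos depend on mitochondria inherited from the egg and make more ATP by respiration as the blastocyst forms its fluid-filled cavity, and beta cells of the islet couple respiratory ATP to insulin release.

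The series asks whether small RNA of sperm carries effects of a father's diet. Sperm came from C57BL/6 males that were 5 weeks old when they were put on a high-fat diet (HFD, D12492) or a normal diet (ND, Diet 1415). RNA of 30 to 40 nt from such sperm was injected at 2 ng per µl into fertilized eggs of the ICR strain, so that HFD and ND name the diet of the RNA donors, not of the embryos or offspring. Embryos were collected at about 56 h (8-cell) and 75 h (late blastocyst) after injection, with 1 library of 5 pooled embryos in each of the 4 embryo groups; their egg donors were 6 weeks old. Islets came from first-generation ICR offspring after a fast of 6 h, with 3 libraries per group. Every embryo and offspring in these libraries had received sperm RNA, so ND is an injected comparison group; the offspring's age is not given in the sources used here. The labels do not say whether the 3 islet libraries of a group came from separate animals, so p-values measure only the spread between these libraries.

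Values are FPKM, fragments per kilobase of transcript scaled to the mapped fragments of the library, a level per transcript length. Read depth is not given with them. The FPKM of all genes summed to 524002 to 706123 in embryo libraries and 730432 to 1032630 in islet libraries. Blastocyst libraries held 2692 to 2972 FPKM of trophectoderm markers against 85.1 to 91.2 at the 8-cell stage, 9 of 9 beta-cell markers were above 1 FPKM in all 6 islet libraries, and cumulus-cell markers summed to at most 0.291 FPKM in embryos. Islet libraries also held acinar markers, 14 of 14 above 1 FPKM, which bears on the comparison of islets below. No 2 libraries were copies of each other: equal values above 0 made up at most 0.00636% of the genes shared by any pair.

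The subunit genes stood highest in blastocysts. They made up 2.99% to 3.26% of all FPKM in the 2 8-cell libraries, 4.62% to 5.92% in the 2 blastocyst libraries and 0.327% to 0.418% in the 6 islet libraries. In islets a few hormone genes fill a large part of the total, with the 9 beta-cell markers alone at 288141 to 694438 FPKM. Embryo and islet libraries were also made with different kits. Levels of embryos and islets are therefore set side by side with no test. The median member stood at 124 to 140 FPKM in 8-cell embryos, 357 to 409 FPKM in blastocysts and 47.3 to 70.6 FPKM in islets.

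The balance between complexes can be read within each library, where scaling cancels. Embryo and islet libraries still differ in kit, and its part in these shares was not tested. Complex IV genes held 42.2% to 45.6% of the members' FPKM in 8-cell embryos, 39.5% to 40.2% in blastocysts and 31.0% to 34.2% in islets. Complex V genes held 34.0% to 36.4%, 35.3% to 35.8% and 46.0% to 48.0% in the same order, so that the largest share lay with complex IV in all 4 embryo libraries and with complex V in all 6 islet libraries. Complex III took 19.7% to 20.5%, 22.7% to 23.2% and 16.2% to 17.3%. Complex II, which has the fewest genes, took 0.686% to 0.924% in 8-cell embryos, 1.53% to 1.91% in blastocysts and 3.64% to 4.69% in islets.

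**Figure D1:**
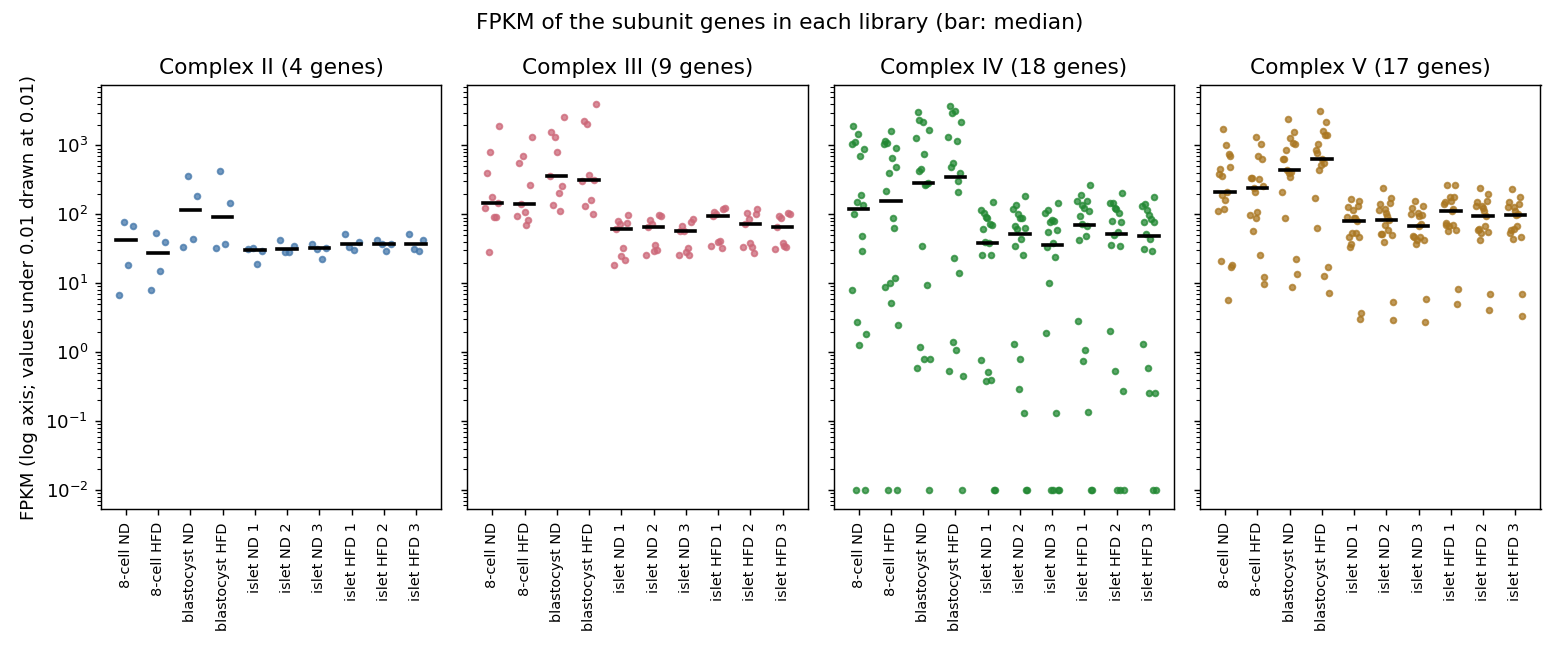
FPKM of each subunit gene (points, log axis) in the 10 libraries (horizontal axis), in a panel per complex, with a bar at the median of the panel's genes. The genes of complexes II and III lie closer together in islets than in embryos, and the median of all members was 357 to 409 FPKM in blastocysts.

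Within complexes II, III and V the levels were more even in islets than in embryos. The 4 genes of complex II differed by 6.90 to 11.4 times between highest and lowest in 8-cell embryos, by 10.6 to 12.9 times in blastocysts, and by 1.48 to 1.75 times in islets. For the 9 genes of complex III the ratio was 19.2 to 66.4 in 8-cell embryos, 23.0 to 39.0 in blastocysts and 3.29 to 5.34 in islets. For complex IV, among genes at 1 FPKM or more in a library, it was 654 to 3448 in embryos and 5.85 to 249 in islets. That left 14 to 16 of the 18 genes in embryo libraries and 12 to 14 in islet libraries. The complex IV ratios therefore do not compare the same genes and cannot show which tissue is more even. For the 17 genes of complex V it was 133 to 441 over the 4 embryo libraries and 54.5 to 81.4 in islets. There the lowest islet gene was Atp5s (2.77 to 4.96 FPKM), which is not known as a stable subunit. Whether library chemistry has a part in this was not tested. In complex II the lowest embryo gene was Sdha, the flavoprotein that holds the active site, with 6.84 (ND) and 7.87 (HFD) FPKM at the 8-cell stage and 33.9 and 32.5 FPKM in blastocysts. Sdhb, the iron-sulfur subunit, was the highest in embryos, with 78.1 and 54.3 FPKM, then 358 and 419 FPKM. In islets the 2 genes lay close together, Sdha at 31.2 to 51.7 and Sdhb at 28.7 to 36.8 FPKM.

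The most abundant member of complex III in all 4 embryo libraries was Uqcrq, a small ubiquinone-binding subunit, at 1908 (ND) and 1332 (HFD) FPKM in 8-cell embryos and 2607 and 3959 FPKM in blastocysts. Uqcrq overlaps the oocyte gene Gdf9 in the annotation, and Gdf9 stood at no more than 0.932 FPKM in embryos. In islets Uqcrq (84.9 to 126 FPKM) and Uqcrh, the acidic hinge protein (75.5 to 121 FPKM), were the highest. Cox5a, a nuclear-encoded subunit of the oxidase, led complex IV in 3 of the 4 embryo libraries, at 1889 (ND) and 1169 (HFD) FPKM at the 8-cell stage and 3047 and 3705 FPKM in blastocysts. In the 8-cell HFD pool Cox6c was higher, at 1618 FPKM. In islets Cox5a stood at only 26.0 to 42.5 FPKM and Cox8a, a small membrane subunit, led with 147 to 265 FPKM. For complex V the embryo leader was Atp5g1, a gene of the membrane c ring, and the islet leader was Atp5e, the epsilon subunit of the catalytic head, at 157 to 270 FPKM. Atp5j2, the membrane f subunit, was the 1 gene of complex V whose 4 embryo values all lay below its 6 islet values. It stood at 5.75 (ND) and 26.1 (HFD) FPKM in 8-cell embryos and 8.78 and 12.6 FPKM in blastocysts, against 72.1 to 119 FPKM in islets.

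From the 8-cell stage to the blastocyst, 27 of 47 members rose and 2 fell, while 18 did not pass the test. The test was limma on log2(FPKM + 1) over the 4 embryo libraries with terms for stage and injected RNA, Benjamini-Hochberg adjusted over 9603 genes, with adjusted p under 0.05 as the threshold. Of all genes tested, 31.9% passed as higher and 16.1% as lower in blastocysts. The median member was 1.03 log2 units higher in blastocysts, beside 0.30 for all genes. The fit has 1 residual degree of freedom, and without the blastocyst HFD library, with stage as the only term, 15 members passed, against 26 with stage as the only term on all 4 libraries. Cox8b, a muscle isoform, is listed at 0 in all 4 embryo libraries and was not tested.

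Complex II rose as a whole, with 4 of 4 genes past the threshold. Sdhb rose by 2.55 log2 units (SE 0.26, limma adjusted p = 0.0013), Sdha by 2.04 (SE 0.24, adjusted p = 0.0019), Sdhd, a membrane anchor, by 1.66 (adjusted p = 0.0026) and Sdhc, the other anchor, by 1.23 (adjusted p = 0.0065). In all 4 genes both blastocyst pools lay above both 8-cell pools. Sdhd went from 66.9 (ND) and 40.1 (HFD) to 186 and 148 FPKM, and Sdhc from 18.6 and 14.9 to 43.4 and 37.6 FPKM.

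In complex III 5 of 9 genes rose and none fell. The largest rises were those of Uqcr10, a small membrane subunit (2.01 log2 units, SE 0.24, limma adjusted p = 0.0020), Uqcrc1, a core protein (1.98, SE 0.23, adjusted p = 0.0018), and Cyc1, cytochrome c1 (1.58, SE 0.21, adjusted p = 0.0026). Uqcr10 stood at 397 (ND) and 564 (HFD) FPKM in 8-cell embryos and 1581 and 2296 FPKM in blastocysts. Uqcrc1 went from 176 and 107 to 798 and 369 FPKM, and Cyc1 from 124 and 94.7 to 356 and 300 FPKM. All 3 separated the stages without overlap. The Rieske iron-sulfur protein gene Uqcrfs1 differed by 0.30 (SE 0.21, adjusted p = 0.27) and did not pass.

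In complex IV 9 of 17 genes rose and 2 fell. Cox7b, a small membrane subunit, rose by 2.37 log2 units (SE 0.21, limma adjusted p = 0.0010), the lowest adjusted p of any member. It stood at 48.1 (ND) and 63.5 (HFD) FPKM at the 8-cell stage and 279 and 300 FPKM in blastocysts. Cox6b2, the testis isoform of subunit VIb, rose by 2.20 (SE 0.49, adjusted p = 0.013), from 2.79 and 10.1 to 35.3 and 23.5 FPKM. Cox5b, a zinc-binding subunit, rose by 1.60 (SE 0.28, adjusted p = 0.0058), from 102 and 221 to 423 and 492 FPKM. Cox4i2, the isoform of subunit IV known from lung, fell by 2.59 log2 units (SE 0.28, adjusted p = 0.0016), from 8.01 and 8.81 to 0.592 and 0.537 FPKM. It also passed with median ratio scaling, no filter and a pseudocount of 0.1 (limma adjusted p = 7.8e-04, 0.010 and 0.0042). When either 8-cell pool was left out, Cox4i2 fell under the filter and was not tested. Its listed locus takes in Bcl2l1, which stood at 1.81 to 2.00 FPKM in 8-cell embryos and 1.24 to 1.38 FPKM in blastocysts. Cox8c, a testis isoform, fell by 0.96 (adjusted p = 0.030), from 1.84 and 2.47 to 0.803 and 0.451 FPKM, but did not pass with a pseudocount of 0.1 (adjusted p = 0.053) or with no filter (adjusted p = 0.096).

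In complex V 9 of 17 genes rose and none fell. Atp5e rose by 2.14 log2 units (SE 0.22, limma adjusted p = 0.0014), from 193 (ND) and 242 (HFD) to 857 and 1063 FPKM. The c-ring genes Atp5g2 (2.13, SE 0.27, adjusted p = 0.0024) and Atp5g3 (1.84, SE 0.36, adjusted p = 0.0084) came next. The catalytic beta subunit Atp5b rose by 1.03 (SE 0.26, adjusted p = 0.019) and the alpha subunit Atp5a1 by 0.86 (SE 0.21, adjusted p = 0.017). Atp5j2 differed by -0.23 and Atp5sl by -0.42, with adjusted p of 0.66 and 0.20.

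**Figure D2:**
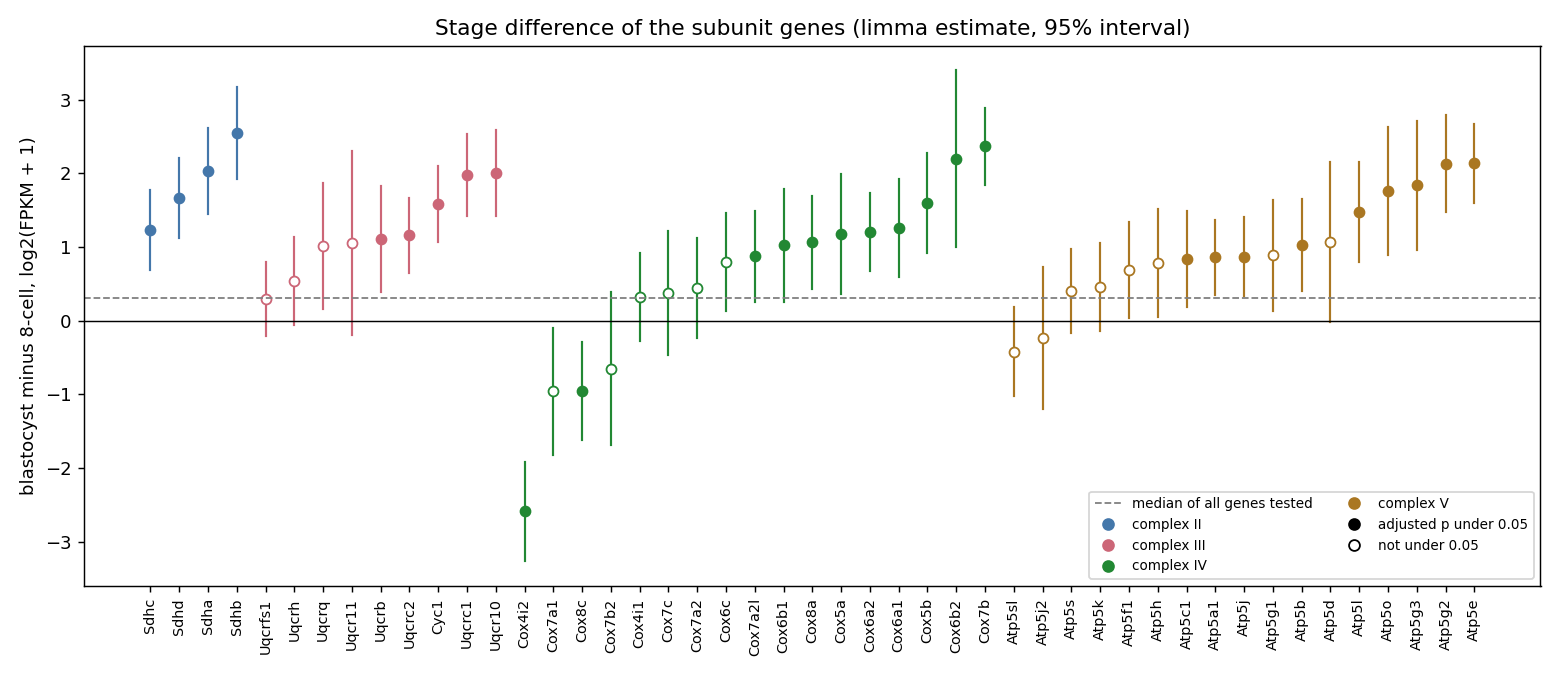
Blastocyst minus 8-cell difference of each member on the log2(FPKM + 1) scale (vertical axis) with its 95% interval, genes grouped by complex (horizontal axis); filled points have an adjusted p under 0.05. All 4 genes of complex II are filled and above 0, and the median of all genes tested (dashed line) is 0.30.

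After median ratio scaling, which moved the median of all genes from 0.30 to 0.08 log2 units, 22 members passed as higher and 3 as lower, the added gene on the lower side being Cox7a1, a muscle isoform. Of all genes tested after this scaling, 26% passed as higher and 22.3% as lower. Across the fit given above and the 8 alternative fits, 13 members passed each time: Sdha, Sdhb and Sdhd of complex II, Uqcr10, Uqcrc1 and Cyc1 of complex III, Cox5b, Cox6b2 and Cox7b of complex IV, and Atp5e, Atp5g2, Atp5g3 and Atp5o of complex V.

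Several subunits are made from alternative genes, and their shares within a library do not depend on its scaling. What the different kits of embryo and islet libraries add to these shares was not tested. The clearest contrast between tissues lay in the c subunit of ATP synthase, the ring that turns with proton flow. Atp5g1, Atp5g2 and Atp5g3 encode the same mature peptide behind different import sequences. Atp5g1 made up 85.7% to 87.1% of the FPKM of the 3 genes in 8-cell embryos, 73.4% to 76.2% in blastocysts and 17.0% to 23.9% in islets. Its level was 1706 (ND) and 1310 (HFD) FPKM in 8-cell embryos and 2413 and 3175 FPKM in blastocysts, against 42.3 to 70.2 FPKM in islets. Atp5g2 stood at 122 and 87.6, then 399 and 518 FPKM in embryos, and at 104 to 176 FPKM in islets. Atp5g3 stood at 162 and 107, then 353 and 636 FPKM, and at 90.1 to 156 FPKM in islets. The embryo and islet ranges of the Atp5g1 share do not overlap. Its share did not separate the islet groups: it was 20.7% ± 3.10 in ND and 18.3% ± 1.76 in HFD (SD, n = 3 each).

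Atp5g1 lies on chromosome 11 (96072793 to 96075694), Atp5g2 on chromosome 15 (102662868 to 102671047) and Atp5g3 on chromosome 2 (73908447 to 73912464) in GRCm38.p6, which is mm10. Bases before the starts of Atp5g1 and Atp5g2 are shown because these genes hold the largest share of c-subunit FPKM in embryos and in islets. That of Uqcr11 is added since this gene differed most between the 8-cell pools (below). All 3 come from RefSeq on GRCm38.p6 and run 5′ to 3′ on the gene's minus strand, Atp5g1 at chr11:96075695-96075881, Atp5g2 at chr15:102671048-102671297 and Uqcr11 at chr10:80406822-80407071. The Atp5g2 and Uqcr11 stretches end at the listed start, and 63 bases next to that of Atp5g1 are left out because they lie inside the gene. Capitals mark matches to the motifs named below.
Atp5g1: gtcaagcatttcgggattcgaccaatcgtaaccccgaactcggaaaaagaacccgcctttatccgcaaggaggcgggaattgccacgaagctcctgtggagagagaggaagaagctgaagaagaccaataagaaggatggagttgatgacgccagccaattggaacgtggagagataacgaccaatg
Atp5g2: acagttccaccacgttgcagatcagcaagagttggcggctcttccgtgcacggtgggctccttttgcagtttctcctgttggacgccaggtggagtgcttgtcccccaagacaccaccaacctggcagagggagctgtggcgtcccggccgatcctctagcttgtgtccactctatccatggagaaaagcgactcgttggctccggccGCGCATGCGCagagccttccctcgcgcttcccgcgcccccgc
Uqcr11: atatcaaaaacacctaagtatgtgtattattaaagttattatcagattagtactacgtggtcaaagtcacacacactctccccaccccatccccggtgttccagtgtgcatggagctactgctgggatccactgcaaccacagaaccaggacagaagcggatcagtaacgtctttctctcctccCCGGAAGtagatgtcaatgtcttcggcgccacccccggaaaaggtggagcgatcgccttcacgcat

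Promoters of 37 of the 48 members were matched by symbol, and the 250 bases before the most upstream listed start were searched on both strands for 5 motifs. GCGCATGC, the core of the NRF1 motif, was present in 5 of 37 members (13.5%) and in 2.31% of 27025 gene promoters of the same length. The 5 were Sdhb, Cox6a1, Atp5g2, Atp5k and Atp5l. CCGGAAG, the ETS core that GABP binds, was present in 8 (21.6%) and in 7.07% of promoters, among them Sdhd, Uqcr11, Uqcrh and Cox6b1. GGGCGG, the SP1 box, stood in 12 members (32.4%) beside 33.0%, TATAAA in 2 (5.41%) beside 13.0%, and AAGATGGC, the YY1 core, in 0 beside 1.58%. The median GC content was 54% in members and 52% in all promoters. In Atp5g2 the match begins 42 bases before the start, where both orientations of GCGCATGC overlap, and in Uqcr11 the ETS core begins 66 bases before the start. A match is a run of letters, not a measured binding site.

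Complex IV has the most isoform pairs. Cox6a1, the general form of subunit VIa, held at least 99.9% of the FPKM of its pair in embryos. Cox6a2, known as the heart and muscle form, is listed at 0 in both 8-cell pools and stood at 1.21 (ND) and 1.41 (HFD) FPKM in blastocysts. In islets Cox6a2 was measured at 39.1, 60.8 and 10.0 FPKM in the ND libraries and 71.6, 49.6 and 51.5 FPKM in the HFD libraries. ND replicate 3 is the low one, with 8.04% of the pair's FPKM beside 25.3% to 30.5% in the other 5 libraries. Muscle markers summed to 0.449 to 1.40 FPKM and adipocyte markers to 0 to 0.539 FPKM in islets, with Tnnt3 at 0 in all 6. Cox6a2 (chromosome 7, 128205435 to 128206366) overlaps Itgad in the annotation, and Itgad stood at 0.0376 to 0.180 FPKM. The listed locus of Cox6a2 is shared with 2 other genes, which makes its value less certain.

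Cox7b2, a germ-cell relative of Cox7b, held 38.0% (ND) and 15.8% (HFD) of the pair's FPKM at the 8-cell stage, 3.32% and 4.49% in blastocysts, and at most 1.48% in islets. Cox6b2 held 1.82% to 7.17% of its pair in embryos and at most 0.554% in islets. Cox7a2l, the supercomplex factor, made up 11.9% to 26.5% of the FPKM of Cox7a1, Cox7a2 and Cox7a2l in embryos and 65.0% to 76.2% in islets. Cox7a1 held at most 0.685% in every library. Cox4i1 held at least 98.2% of its pair and Cox8a at least 99.7% of its 3 genes in all 10 libraries.

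**Figure D3:**
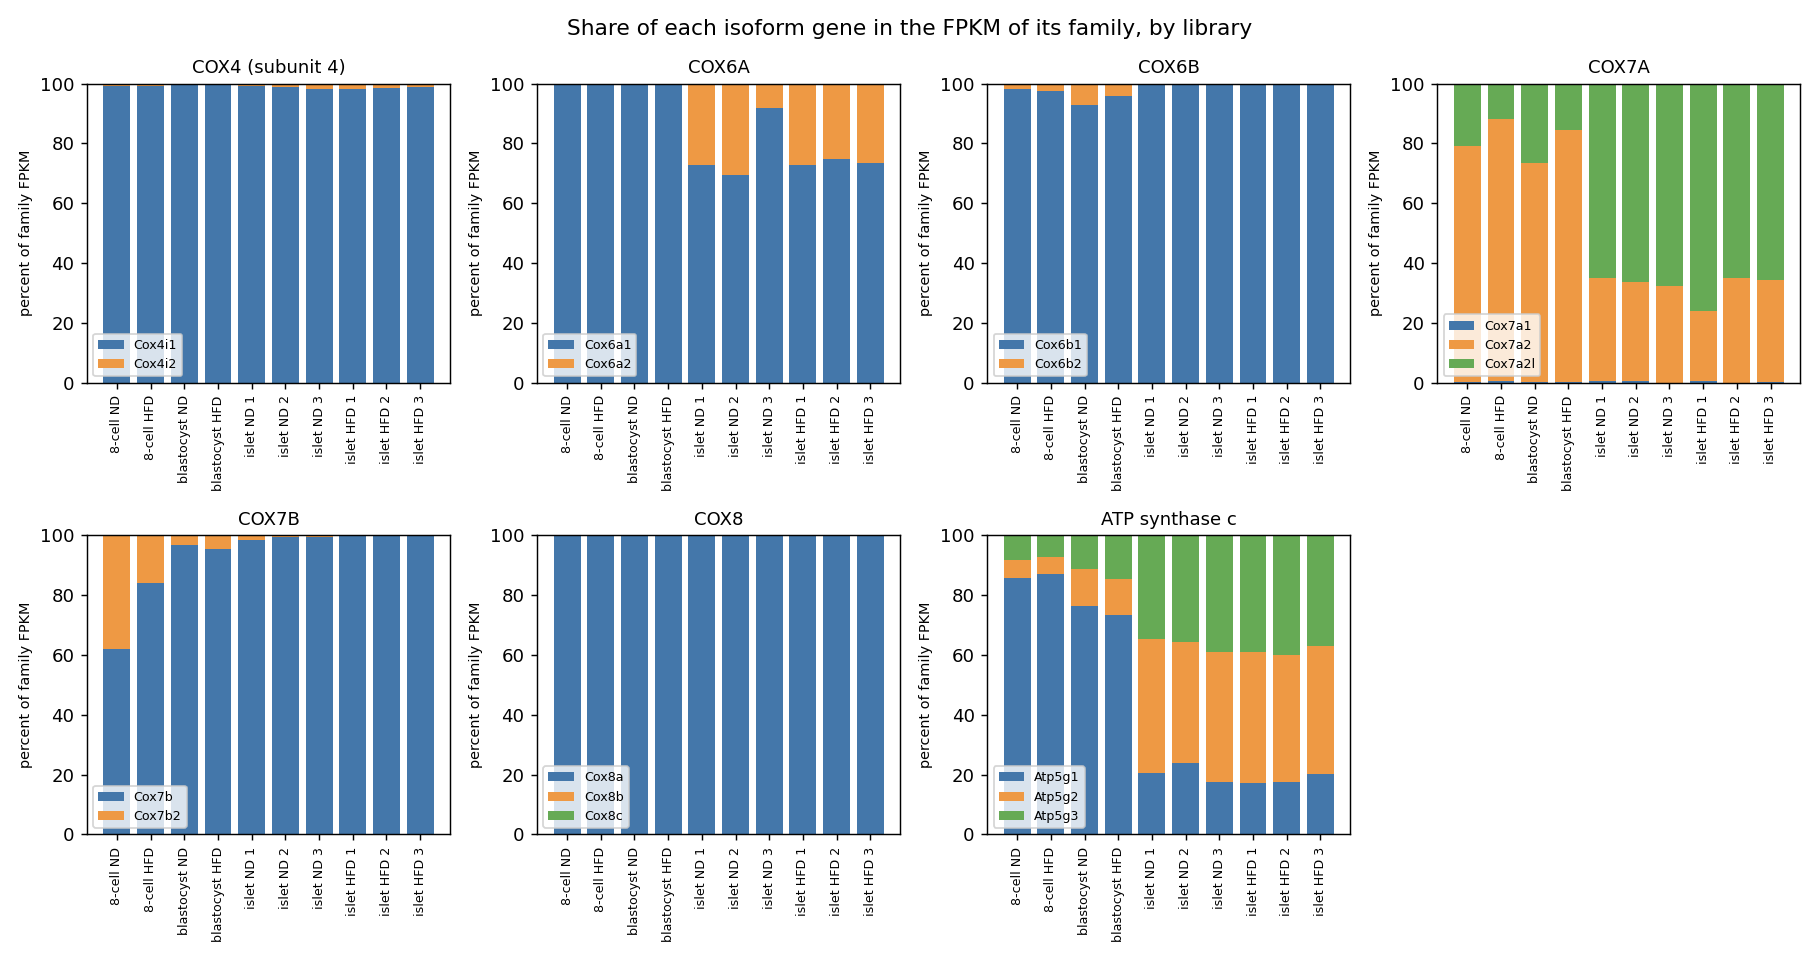
Share of each gene in the FPKM of its isoform family (stacked bars, percent, vertical axis) in the 10 libraries (horizontal axis); Cox7a2l is drawn with COX7A by sequence relation although it is a supercomplex factor. Atp5g1 takes 73.4% to 87.1% of the c-subunit FPKM in embryos and 17.0% to 23.9% in islets, and Cox6a2 appears in islets.

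In 8-cell embryos the members furthest apart between the HFD and ND pools were Uqcr11, Atp5j2 and Cox7c, each higher in the HFD pool. With 1 pool per group there is no test and no replicate check, so members with a mean of at least 10 FPKM are described by their log2 ratio of FPKM + 1, and a difference of at least 1 is counted. Of 41 members, 6 were at least 1 log2 unit higher in the HFD pool and 2 at least 1 lower, beside 1.95% and 4.96% of 3687 genes. All genes had a median of -0.32, and 22.7% of them were higher in the HFD pool. Of the members, 15 were higher and 26 lower, with a median of -0.19. Once the libraries were scaled by their median ratio, 22 were higher, 19 were lower and the median was 0.06, beside 42.5% of all genes higher. The 7 members not counted were Sdha, Cox4i2, Cox6a2, Cox6b2, Cox7a1, Cox8b and Cox8c.

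Uqcr11 (chromosome 10, 80402997 to 80406821), a small subunit of complex III, stood at 28.7 FPKM in the ND pool and 142 FPKM in the HFD pool, a difference of 2.27 log2 units. Atp5j2 stood at 5.75 and 26.1 FPKM (2.01), and Cox7c, a small oxidase subunit, at 136 and 491 FPKM (1.84). Atp5d, the delta subunit of the catalytic head, stood at 20.8 and 58.2 FPKM (1.44), Cox6b1 at 151 and 401 FPKM (1.41) and Cox5b at 102 and 221 FPKM (1.11). The listed locus of Atp5d is shared with 48 other genes, which makes its value less certain. On the other side, Cox7b2 stood at 29.5 FPKM in the ND pool and 11.9 FPKM in the HFD pool (-1.24) and Cox7a2l at 188 and 89.3 FPKM (-1.07). With median ratio scaling Cox7a2l came to -0.82 and dropped below the size counted, and Uqcrh, at 144 and 268 FPKM, went from 0.89 to 1.14 and above it.

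None of the 3 counted complex II genes was higher in the 8-cell HFD pool, where only 22.7% of all genes were. Sdhc stood at -0.30, near the median of -0.32 for all genes, and Sdhd at -0.72. In complex III Uqcrc1 had the lowest value (-0.72), and in complex V Atp5o, the stalk protein that confers oligomycin sensitivity, had it, at 492 and 260 FPKM (-0.91). The catalytic subunits Atp5a1 and Atp5b both stood at -0.19. Many subunit genes are short. Of 3671 genes with a known genomic span, the shortest 10% (up to 3045 bp) had a median difference of -0.04 in 8-cell embryos beside -0.32 for all, and 9 of the 41 members belong to it. Those 9 had a median of 0.32 and the other members -0.25. Among genes at least 1 higher in the HFD pool, Cox5b (1902 bp) and Cox7c (1998 bp) belong to the shortest 10%. Uqcr11 (3825 bp), Atp5j2 (7838 bp), Cox6b1 (9144 bp) and Atp5d (7131 bp) do not. The genomic span includes introns and is not the transcript length. What transcript length contributes was not tested.

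In blastocysts no member was at least 1 log2 unit higher in the HFD pool and 1 of 43 was at least 1 lower, beside 1.28% and 4.91% of 4134 genes. That gene was Uqcrc1 (chromosome 9, 108936648 to 108949641), at 798 FPKM in the ND pool and 369 FPKM in the HFD pool (-1.11); with median ratio scaling it stood at -0.995 and no longer reached the size counted. The members' median was 0.28 while that of all genes was -0.18, with 28 members higher and 15 lower beside 35.0% of all genes higher. By complex the median was -0.13 in complex II, -0.07 in complex III, 0.28 in complex IV and 0.37 in complex V. Atp5g3 had the highest value (353 and 636 FPKM, 0.85). Next in their complexes came Cox7a2, the general VIIa form (746 and 1163 FPKM, 0.64), Uqcrb, a ubiquinone-binding subunit (1310 and 2039 FPKM, 0.64), and Sdhb (358 and 419 FPKM, 0.23). The lowest outside complex III were Atp5sl (13.6 and 7.20 FPKM, -0.83), Cox6b2 (35.3 and 23.5 FPKM, -0.57) and Sdhd (186 and 148 FPKM, -0.33). The shortest 10% of genes had a median of -0.03 in blastocysts, and 10 of the 43 members belong to it.

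In blastocysts the 6 genes that were at least 1 higher in the 8-cell HFD pool lay between -0.50 (Atp5d) and 0.50 (Cox7c). Uqcr11 came to 137 FPKM in the ND pool and 131 FPKM in the HFD pool of blastocysts, and Atp5d to 88.4 and 62.4 FPKM. Taking both stages in the additive limma fit, the term for the injected RNA passed the threshold for 0 of 47 members and 0% of 9603 genes. At an unadjusted p under 0.05 it counted 3 members as higher and 3 as lower, beside 211 and 954 of the 9603 genes. With median ratio scaling it counted 10 members as higher and 2 as lower, beside 454 and 433 of 9582 genes. No member passed the adjusted threshold there either.

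**Figure D4:**
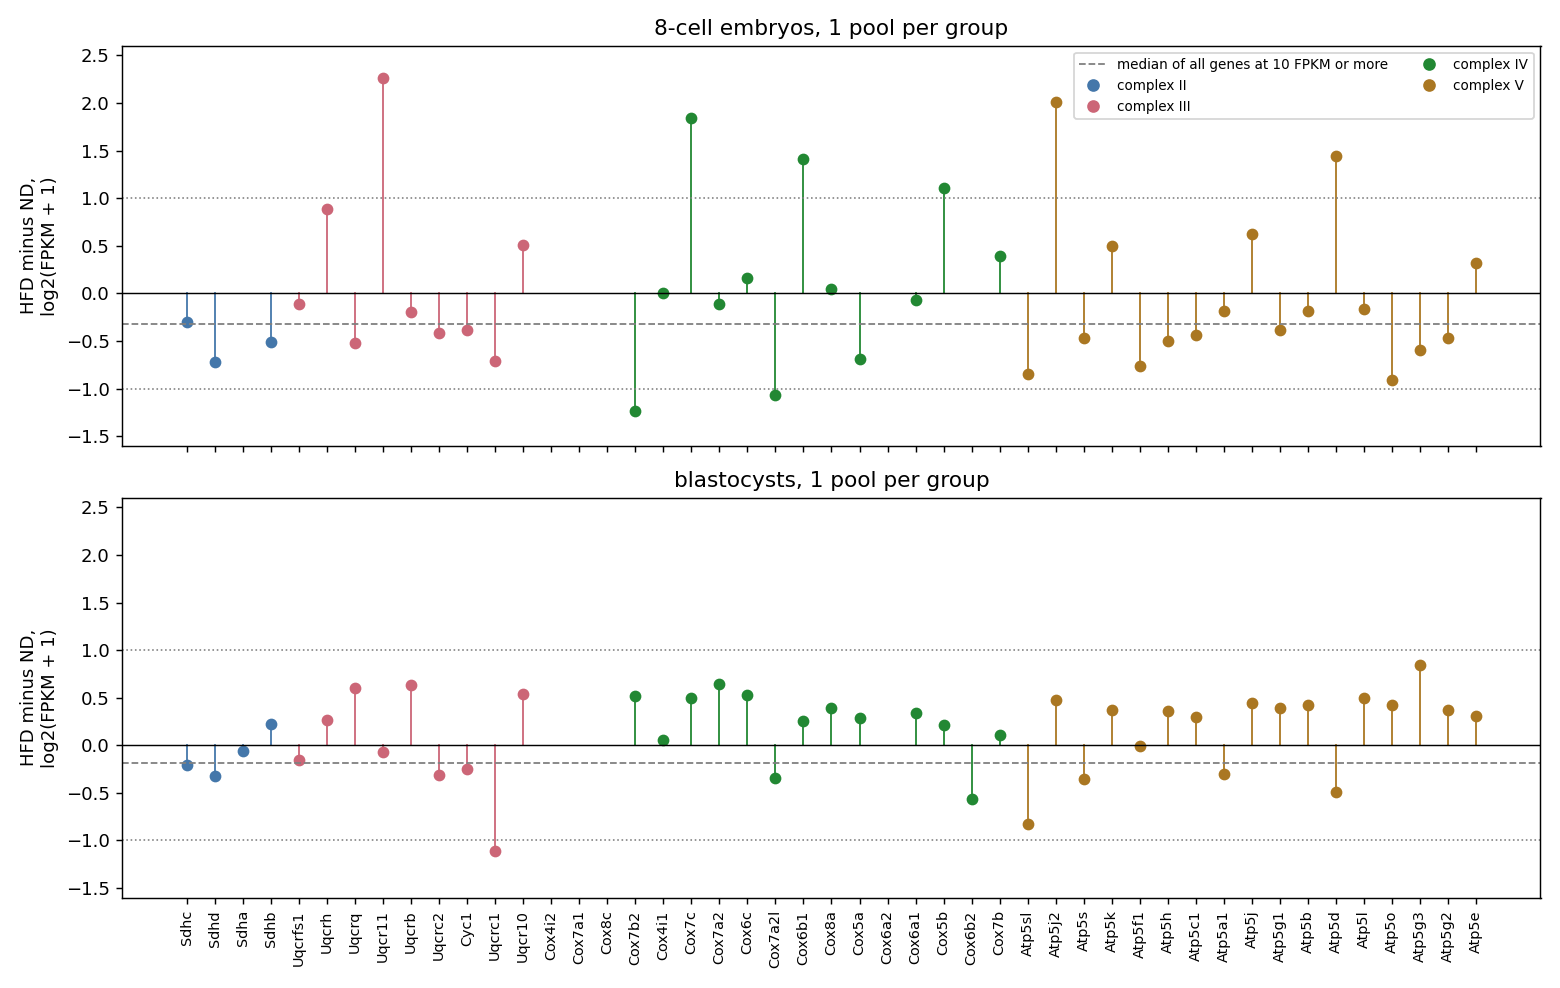
HFD minus ND difference of each member with a mean of at least 10 FPKM on the log2(FPKM + 1) scale (vertical axis), for 8-cell embryos (top) and blastocysts (bottom), 1 pool per group; dotted lines mark a difference of 1 and the dashed line the median of all genes. Uqcr11, Atp5j2 and Cox7c reach 1.84 to 2.27 in the upper panel, and the lower panel has no member above 0.85.

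In islets all 43 members that passed the filter on low values were higher in HFD than in ND, and none passed the limma test. The filter was at least 1 FPKM in 3 of 6 libraries, and Cox6b2, Cox7a1, Cox7b2, Cox8b and Cox8c did not pass it. The members' median difference was 0.39 log2 units, but the median of all 11737 genes was 0.30 and 93.8% of them were higher in HFD. Of all genes, 0.0511% passed an adjusted p under 0.05. At an unadjusted p under 0.05, 18 members were counted, all as higher, beside 29.6% of genes. In 30 of 43 members the 3 HFD libraries all lay above the 3 ND libraries, as they did in 41.5% of genes. With median ratio scaling the members' median was 0.05, with 30 higher and 13 lower, and the groups did not overlap in 2 members, Uqcrc1 and Atp5d, beside 8.41% of genes. The sign of the scaled median rests on single libraries: it was -0.05 without ND replicate 3 and -0.02 without HFD replicate 1.

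Some marker sums of the islet libraries differed between the groups on the deposited scale, where 93.8% of genes were higher in HFD. The 14 acinar markers summed to 154296 to 209872 FPKM in ND and 66987 to 142422 FPKM in HFD. Of these, Cela2a, Cela3b, Ctrb1, Amy2b, Rbpjl and Bhlha15 overlapped between the groups. The 9 beta-cell markers summed to 288141 to 431071 FPKM in ND and 450686 to 694438 FPKM in HFD. Most of that sum is Ins2 (244083 to 582307 FPKM). Ins1, Ins2 and Iapp separated the groups, while Slc2a2, Pdx1, Mafa, Nkx6-1, Ucn3 and G6pc2 overlapped. Sums of duct markers (116 to 170 against 218 to 285 FPKM) and endothelial markers (77.0 to 117 against 146 to 198 FPKM) were also higher in HFD. Of these, the duct genes Krt19, Sox9 and Cftr and the endothelial gene Tek overlapped between the groups. The sums of alpha, delta, PP, stroma and immune markers overlapped as well. The part of the marker differences in the values of the subunit genes was not tested. In such bulk samples fewer cells of a type and less RNA per cell cannot be told apart. HFD replicate 1 had the highest value of 35 of the 43 members, while ND replicate 3 had the lowest of 26 and ND replicate 1 of 16. The share of all genes with this order was not computed. The median ratio factors, taken over genes in general, were likewise largest for HFD replicate 1 (1.18) and smallest for ND replicates 1 (0.744) and 3 (0.935).

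The smallest p-values belonged to complex III. Uqcrc1 stood at 24.5, 29.6 and 28.6 FPKM in ND and 39.5, 38.0 and 38.3 FPKM in HFD, a difference of 0.47 log2 units (SE 0.16, limma adjusted p = 0.12). Cyc1 stood at 18.5, 25.4 and 26.2 FPKM in ND and 34.9, 34.2 and 31.7 FPKM in HFD, a difference of 0.52 (SE 0.18, adjusted p = 0.12). The groups do not overlap in either gene on the deposited scale. After scaling the differences were 0.14 for Uqcrc1 and 0.19 for Cyc1, with limma adjusted p of 0.64 and 0.56.

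In complex II the lowest p-values were those of Sdha, at 31.2, 42.7 and 37.3 FPKM in ND and 51.6, 43.1 and 51.7 FPKM in HFD (0.39, SE 0.18, limma adjusted p = 0.16), and Sdhc, at 19.2, 28.2 and 22.2 FPKM and 30.9, 29.1 and 29.5 FPKM (0.37, SE 0.18, adjusted p = 0.17). The groups do not overlap in either gene, though in Sdha the nearest libraries, at 42.7 and 43.1 FPKM, almost touch. In complex IV Cox7b stood at 26.1, 25.5 and 24.4 FPKM in ND and 68.6, 35.2 and 29.1 FPKM in HFD (0.68, SE 0.26, adjusted p = 0.13). There HFD replicate 1 is far above the other 2, and the difference was 0.33 without it. Cox5b stood at 61.5, 66.9 and 55.7 FPKM and 94.6, 79.9 and 76.4 FPKM (0.44, SE 0.17, adjusted p = 0.14). Cox6a2 had the widest difference over all 6 libraries (0.94, SE 0.46, adjusted p = 0.17), but its groups overlap and the difference was 0.22 without ND replicate 3, its lowest library.

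In complex V Atp5d stood at 33.5, 52.1 and 47.2 FPKM in ND and 75.2, 61.2 and 59.8 FPKM in HFD (0.57, SE 0.20, limma adjusted p = 0.13). Atp5sl stood at 3.77, 5.37 and 5.89 FPKM and 8.15, 7.05 and 6.94 FPKM (0.49, SE 0.18, adjusted p = 0.13). The smallest differences were those of Uqcrc2, the other core protein of complex III (0.09), Sdhb (0.15) and Atp5g1 (0.17). By complex the medians were 0.33 for II, 0.39 for III, 0.42 for IV and 0.37 for V.

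**Figure D5:**
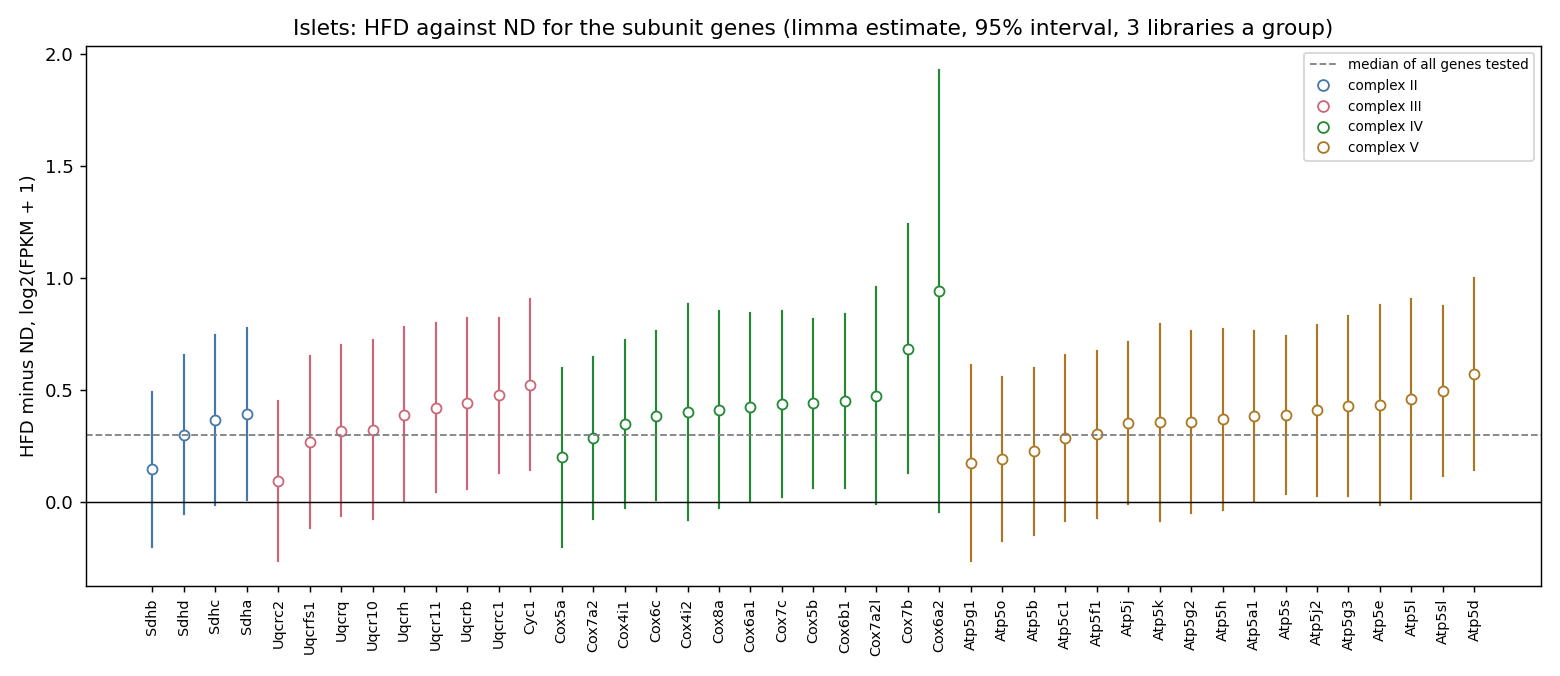
HFD minus ND difference of the 43 members tested in islets on the log2(FPKM + 1) scale (vertical axis) with 95% intervals, 3 libraries per group, genes grouped by complex (horizontal axis); open points did not pass an adjusted p of 0.05. Every point is open and above 0, around the median of all genes tested at 0.30 (dashed line).

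Genes that work beside the complexes were taken from lists and described by counts, to be read against the 31.9% of all genes that passed as higher in blastocysts and the 16.1% that passed as lower (26% and 22.3% after scaling). Of 27 assembly factors tested, 14 rose from the 8-cell stage to the blastocyst and none fell, with a median of 0.83 log2 units; after scaling 11 rose and 3 (Atpaf2, Cox19 and Sco2) fell. Coa3, an early oxidase assembly factor, rose by 2.25 (limma adjusted p = 0.0016) and Sdhaf1, which matures Sdhb, by 1.78 (adjusted p = 0.0024). Of 13 partners of the complexes, 9 rose, among them Etfb, an electron carrier of fat oxidation (2.90, adjusted p = 6.8e-04), and Slc25a4, an ADP/ATP carrier (2.41, adjusted p = 0.0014). Cycs, somatic cytochrome c, differed by 0.56 and did not pass (adjusted p = 0.073). Of 17 other mitochondrial proteins 10 rose, such as the channel Vdac2 (2.33, adjusted p = 0.0012), and 2 fell, the import receptors Tomm20 (-1.28, adjusted p = 0.0052) and Tomm22 (-1.20, adjusted p = 0.0057).

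Of 13 regulators of respiratory genes tested, 3 rose (Ppargc1b, Tfam and Lrpprc) and 4 fell (Gabpa, Gabpb1, Yy1 and Tfb2m). Gabpa, a subunit of the ETS factor GABP, fell by 0.87 log2 units (limma adjusted p = 0.024) and Tfam, which packages mitochondrial DNA, rose by 1.14 (adjusted p = 0.013). After scaling the regulators again counted 3 and 4, the partners 8 and 0, and the other mitochondrial proteins 9 and 2. The Gabpa gene overlaps Atp5j in the annotation. In islets none of the 28 assembly factors, 12 partners, 12 regulators and 17 other mitochondrial proteins tested passed the threshold, and their medians were 0.29, 0.30, 0.21 and 0.23, beside 0.30 for all genes and 0.39 for the subunit genes. Subunits made from the mitochondrial genome were not analysed here.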

How the data were processed

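Gene expression was measured by RNA-seq in 4 embryo pools (Smart-Seq2 libraries) and 6 islet libraries (TruSeq Stranded mRNA), and the files hold FPKM of each gene, computed by the authors, as their headers name it. For these files the submitters' processing notes name TopHat2 2.0.8b, build mm10 and, for embryos alone, Cufflinks, without saying which step each did; whether counting used the strand is not given in the sources used here. Depth is unknown. Positions and promoters are RefSeq's for GRCm38.p6. Members and lists were chosen with earlier results of these data known. Differences were taken on log2(FPKM + 1), which understates changes of low genes. Islets (at least 1 FPKM in 3 of 6 libraries, 11737 genes, 4 residual degrees of freedom) and embryo stages (at least 1 FPKM in 2 of 4 libraries, 9603 genes) were tested two-sided with limma 3.58.1 (R 4.3.3), whose prior variance followed a trend with mean level, and p-values were adjusted over all genes by Benjamini-Hochberg. The scripts were tested on simulated data. An exact permutation test of 3 libraries against 3 cannot give a p under 0.1, so none was used. Embryo groups of 1 pool had no test. In embryos 10 genes with a failed status were left out. Named genes are those past a threshold, the 2 lowest p-values (islets), largest differences (embryo pools), 3 largest changes (stages) and highest level per complex, and the isoform families. Alternatives were pseudocount, filter, median ratio scaling, trend, replicate block, left-out libraries and stage alone. Sperm small RNA and islet bisulfite libraries were not analysed here. Of the members, 16 overlap another RefSeq gene and 7 share a listed locus with other genes, which makes those values less certain.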

Additional observations from a re-analysis of the deposited data

Results flagged for a closer look

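The HFD minus ND difference had opposite signs in the 2 embryo stages for 17 of the 41 members with at least 10 FPKM on average in both, and in 3 of them it was at least 0.5 log2 units in each stage. Cox7b2 was at -1.24 in 8-cell embryos and 0.52 in blastocysts. Atp5g3 was at -0.60 and 0.85, and Uqcrq at -0.52 and 0.60. These values are on the deposited scale. With median ratio scaling Atp5g3 came to -0.345 and Uqcrq to -0.266 in 8-cell embryos, and both dropped below 0.5 in size there. Cox7b2 stayed above it, at -1.002 in 8-cell embryos and 0.623 in blastocysts. With 1 pool per group these differences between stages were not tested. The share of all genes with opposite signs was not computed, so the count of members has no background here.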

How the results depend on the processing

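In islets no member passed under any alternative without the replicate block. With the replicate block 1 member passed, Cox6a2 (0.94 log2 units, limma adjusted p = 0.0095; 0.22 with no block and without ND replicate 3), and 590 genes did instead of 6. Same-numbered islet libraries did not deviate together (correlations -0.03, 0.04 and 0.03). The labels do not say whether equal numbers mark a pairing, and these correlations cannot decide it. The members' median islet difference of 0.39 came to 0.0459 with median ratio scaling. Leaving out each library gave 0.29 to 0.46 on the deposited scale, and together with median ratio scaling -0.0462 to 0.144, an alternative chosen after seeing the data. There it was 0.144, 0.0490 and -0.0462 without ND replicates 1, 2 and 3, and -0.0170, 0.0412 and 0.103 without HFD replicates 1, 2 and 3, and without ND replicate 3 Sdhc was at -0.0261, Cox5b at -0.00882 and Cox6a2 at -0.16. In 8-cell embryos the members' median turned from -0.189 to 0.0613 with scaling, and in blastocysts it moved from 0.28 to 0.40, with 0 members past 1 log2 instead of 1. The cause was not tested, beyond scaling shifting the median of all genes. For the stages, 21 to 26 members passed with another pseudocount, no filter, scaling or no term for the injected RNA, and 15 to 30 with stage alone and a library left out (chosen after seeing the data), the 15 without the blastocyst HFD library, against 26 with stage alone on all 4. The mean islet share of Atp5g1 was 19.5% and moved to between 18.6% and 20.0% when a library was left out. Unknown depth limits values near 0, such as those of Cox8b and Cox8c.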
